A study of Mus musculus with 15 samples.

Results

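Camp, S100a9, C1qb and Anxa1 are genes of neutrophils, monocytes and macrophages. Their RNA was followed on 15 two-colour cDNA arrays of a mouse ES (embryonic stem) cell line that the labels call lymphoid. They are 4 of the 9834 genes named on the array, found by gene symbol in the platform annotation, with 6 of 20205 probes: 2 for Camp, 2 for S100a9, 1 for C1qb and 1 for Anxa1. The 4 genes had been chosen from measured values of these same arrays, so their ratios are given as a description, without a test. Each array set RNA of the treated line against RNA of that line without treatment. The treated RNA carried Cy5 on 8 arrays (numbers 1 to 8) and Cy3 on 7 dye swaps (numbers 9 to 15). The labels name no agent, dose or duration, do not say what makes the line lymphoid, and do not tell how many cultures were grown. The protocol they give mentions organs, with control animals as the source of the reference, which does not match a cell line. A ratio gives no level, so the identity of the line could not be checked against its markers.

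Camp encodes the cathelicidin precursor, stored in the secondary granules of neutrophils and cut into an antimicrobial peptide on release. S100a9 encodes a calcium-binding protein that pairs with S100a8 to form calprotectin, an abundant cytosolic protein of neutrophils and monocytes that binds metal ions and signals through Tlr4 and the receptor Ager. C1qb encodes a chain of C1q, the recognition unit of the classical complement pathway, which macrophages make together with the products of C1qa and C1qc. Anxa1 encodes annexin A1, a protein that binds phospholipids in the presence of calcium, is induced by glucocorticoids, and limits neutrophil recruitment through formyl peptide receptors. Factors of the C/EBP family and PU.1 drive many genes of the myeloid lineage.

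The promoters of the 4 genes are shown because the ratios below turn on how alike these genes behaved. Each line gives the 250 bases before the annotated start, from RefSeq (GRCm38.p6), read 5′ to 3′ on the minus strand. Capitals mark matches to 4 motifs searched on both strands: C/EBP (TTNNGNAAT), PU.1 (GAGGAAGT), the TATA box (TATAAA) and a glucocorticoid receptor half-site (AGAACA).
S100a9, chr3:90695722-90695971: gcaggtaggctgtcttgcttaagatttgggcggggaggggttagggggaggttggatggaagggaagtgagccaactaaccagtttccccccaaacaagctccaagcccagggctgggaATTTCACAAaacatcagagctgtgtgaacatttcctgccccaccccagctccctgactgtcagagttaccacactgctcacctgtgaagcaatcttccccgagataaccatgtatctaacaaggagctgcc
Anxa1, chr19:20390672-20390921: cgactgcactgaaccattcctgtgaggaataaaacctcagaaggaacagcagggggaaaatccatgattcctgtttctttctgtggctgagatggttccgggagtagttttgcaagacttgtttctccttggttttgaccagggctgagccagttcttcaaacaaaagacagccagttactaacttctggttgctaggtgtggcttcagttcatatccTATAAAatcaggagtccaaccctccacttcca
C1qb, chr4:136886201-136886450: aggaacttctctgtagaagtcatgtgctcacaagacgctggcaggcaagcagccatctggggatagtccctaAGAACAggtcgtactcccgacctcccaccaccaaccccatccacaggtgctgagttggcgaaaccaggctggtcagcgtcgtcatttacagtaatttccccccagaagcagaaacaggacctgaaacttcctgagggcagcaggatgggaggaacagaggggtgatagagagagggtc
Camp, chr9:109849457-109849706: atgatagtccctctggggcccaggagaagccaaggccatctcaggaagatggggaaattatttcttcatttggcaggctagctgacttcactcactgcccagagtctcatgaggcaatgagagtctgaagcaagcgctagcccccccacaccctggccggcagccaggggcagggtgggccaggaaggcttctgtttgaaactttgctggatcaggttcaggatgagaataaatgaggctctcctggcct
The S100a9 window held a C/EBP match on the opposite strand, from 131 to 123 bases before the start. The motif occurred in 10.2% of 32851 windows of the same length. Anxa1 had a TATA match from 32 to 27 bases before the start (12.4% of windows), and in S100a9 these letters began at the first base of the transcript, just past the window. C1qb held the glucocorticoid half-site from 178 to 173 bases before the start (16.1% of windows). None of these letters occurred in the Camp window, and PU.1 (2.44% of windows) matched in none of the 4. A match is a string of letters, and binding was not measured.

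The values are log2 ratios as deposited, and a value of 0 is an equal signal in both channels. Between 19213 and 19973 probes per array were measured, with standard deviations between 0.35 and 0.82 (log2). Whether the dye swaps had been turned before deposit is not stated. Values with an absolute log2 above 10 are placeholders, not measurements, and were set missing. They pointed up on the Cy5 arrays (1117 values) and down on the swaps (882 values) without exception. From this the ratio was read as likely treated over untreated in both orientations; it is an inference from the values. The median correlation over probes was -0.058 between arrays of opposite orientation and 0.083 within an orientation. Each gene is therefore given in both orientations. The treatment estimate below is the mean of the 2 orientation means. The dye effect is 0.5 times the amount by which the Cy5 mean exceeds the mean of the swaps. If the deposited swaps were not turned, the dye effect would be the treatment estimate and the reverse. None of the 6 probes held a placeholder.

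Camp lay below 0 in both orientations, on 6 of 8 arrays and on 6 of 7 dye swaps. Averaged over its 2 probes, its lowest, median and highest values were -0.93, -0.19 and 0.38 with the treated RNA in Cy5. On the dye swaps they were -0.87, -0.24 and 0.15, so the orientations overlapped over nearly their whole range. The means were -0.20 ± 0.37 (SD, n = 8 arrays) and -0.39 ± 0.36 (SD, n = 7), which correspond to ratios of 0.869 and 0.764. The treatment estimate was -0.30 ± 0.09 (SE, n = 15), a ratio of 0.815. In RNA of a whole culture, fewer cells of a type and less RNA per cell cannot be told apart.

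The pair of Camp probes differed in spread. Probe 4778 ranged from -2.02 to 0.47 on the Cy5 arrays and from -1.51 to 0.41 on the dye swaps, with medians of -0.14 and -0.54. Its values at or below -1 came from arrays 5, 11, 13 and 14, and the value of array 13, -1.15, was that of a dim spot. A spot is called dim here where its log2 ratio, less a constant of its array, comes within 0.0015 of one that small whole-number signals (at most 6) would give. Brighter spots can meet this rule too, since the signal itself is not in the values. Between 722 and 3123 values per array met it. Probe 4922 stayed between -0.45 and 0.30 (median -0.17) and between -0.54 and 0.09 (median -0.23). Its estimate was -0.18 ± 0.07 (SE), against -0.41 ± 0.18 for probe 4778. Over the 15 arrays, which share the reference line, the probes correlated at r = -0.11 (rho = -0.08). Array 5 was lowest for probe 4778 and next to highest for probe 4922, while array 13 was among the 5 lowest for both. Over all 1987 genes with a pair of probes, the median r was 0.0027, with quartiles of -0.21 and 0.23.

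Arrays 5, 6, 11 and 13 had missing spots in common more than other arrays (r of at least 0.25), and arrays 7, 8 and 15 shared almost none with any array (r below 0.1). These sets were read from the missing spots after seeing the data and are not a stated batch. Camp was at -0.71 in the first set (n = 4), at -0.11 in the remaining 8 arrays and at -0.21 in arrays 7, 8 and 15. The sign was the same in each set. In the first set probe 4778 was at -1.20 and probe 4922 at -0.22. In the remaining 8 arrays they were at -0.12 and -0.10, and in arrays 7, 8 and 15 at -0.05 and -0.38. Arrays 5, 11 and 13 had the 3 lowest Camp averages of all 15, at -0.93, -0.87 and -0.76. The part of the first set in the result was not tested.

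S100a9 took opposite signs in the orientations as an average of 2 probes, while the means of 1 of these, probe 18815, were below 0 in both. Averaged over its 2 probes, the lowest, median and highest values were -0.15, 0.11 and 0.51 with the treated RNA in Cy5, and 6 of 8 arrays were above 0. On the dye swaps they were -0.77, -0.45 and -0.27, all 7 below 0. The lowest array of one orientation thus lay above the highest of the other. The means were 0.13 ± 0.22 (SD, n = 8) and -0.50 ± 0.17 (SD, n = 7), ratios of 1.09 and 0.708. Their mean, the treatment estimate, was -0.18 ± 0.06 (SE, n = 15), and the dye effect was 0.31 ± 0.06 (SE).

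The split was wide for 1 of the S100a9 probes and narrow for the other. Probe 4846 had a lowest, median and highest value of -0.12, 0.35 and 0.63 with the treated RNA in Cy5, where 7 of 8 arrays lay above 0. On the dye swaps these were -1.28, -0.68 and -0.40, with all 7 below 0. Its means of 0.30 and -0.76 correspond to ratios of 1.23 and 0.591. Probe 18815 ran from -0.38 to 0.69 (median -0.14) and from -0.52 to 0.07 (median -0.23), and the orientations overlapped. Its means of -0.04 and -0.24 had the same sign, with 6 of 8 arrays and 6 of 7 swaps below 0. Its dye effect was 0.10 ± 0.08 (SE), against 0.53 ± 0.08 for probe 4846. The difference of the probes on an array was 0.34 ± 0.44 (SD, n = 8) on the Cy5 arrays and -0.52 ± 0.43 (SD, n = 7) on the dye swaps. The probes were set apart after this split had been seen, so the difference is given without a test. One value of each probe was that of a dim spot, 0.07 on array 7 for probe 4846 and 0.34 on array 2 for probe 18815. Both probes are named S100a9 by the annotation, and their sequences were not used here.

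C1qb lay below 0 on 12 of 15 arrays, with 1 array far below the others. With the treated RNA in Cy5 its lowest, median and highest values were -1.04, -0.12 and -0.03, all 8 below 0. On the dye swaps they were -0.46, -0.06 and 0.13, with 4 of 7 below 0. The lowest value came from array 2, and the other 7 arrays of that orientation lay between -0.37 and -0.03. The means were -0.25 ± 0.34 (SD, n = 8) and -0.12 ± 0.23 (SD, n = 7), and the treatment estimate -0.18 ± 0.08 (SE, n = 15), a ratio of 0.881. Without array 2 the estimate was -0.13. The value of array 14, -0.43, was that of a dim spot. In arrays 7, 8 and 15 it was -0.009, so C1qb was near 0 in that set.

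Anxa1 lay on both sides of 0 with the treated RNA in Cy5 and below 0 on every dye swap. Its lowest, median and highest values were -0.63, -0.007 and 0.42 on the former, with 4 of 8 below 0. On the dye swaps they were -1.05, -0.43 and -0.21. The orientations overlapped only through array 8, at -0.63. The means were 0.02 ± 0.35 (SD, n = 8) and -0.49 ± 0.28 (SD, n = 7), ratios of 1.01 and 0.71. The treatment estimate was -0.24 ± 0.08 (SE, n = 15), and in arrays 5, 6, 11 and 13 alone it was 0.05.

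**Figure D1:**
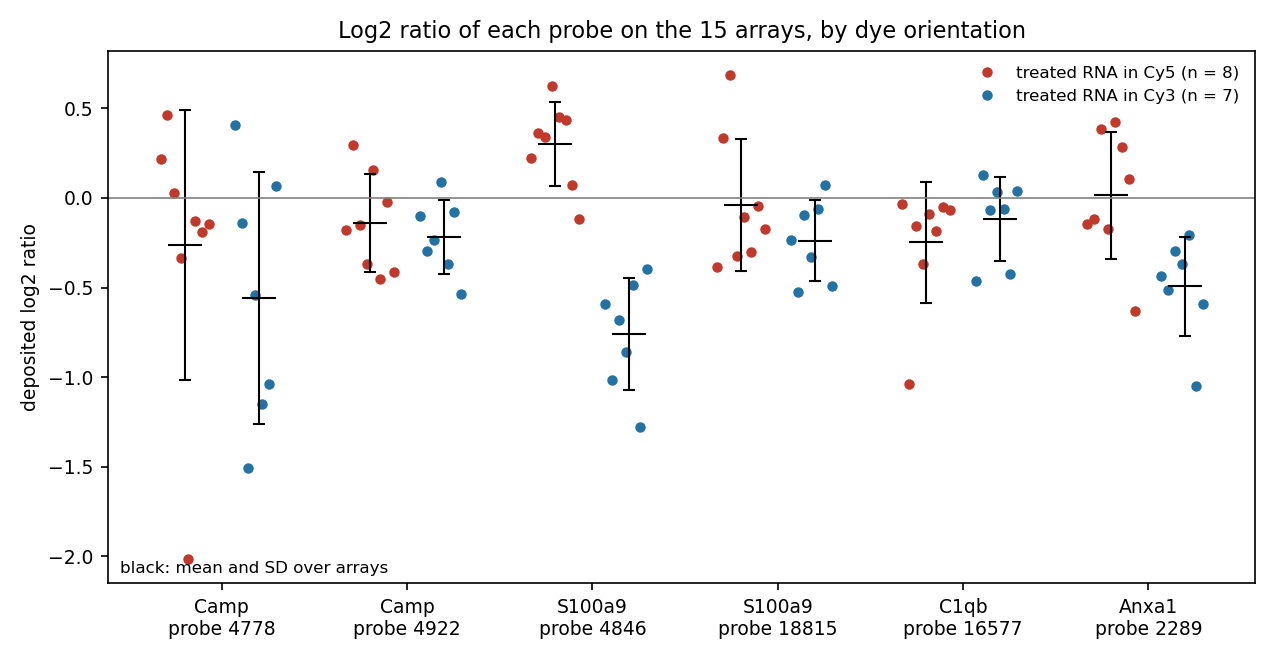
The vertical axis gives the deposited log2 ratio of each of the 6 probes on each array. Red points are the 8 arrays that had Cy5 on the treated RNA and blue points the 7 dye swaps, with the mean and SD over arrays in black. For S100a9 probe 4846 the red points lie between -0.12 and 0.63 and the blue ones between -1.28 and -0.40, while the colours overlap for the other 5 probes.

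None of the 4 genes passed limma's test for the treatment estimate (Benjamini-Hochberg adjusted p under 0.05), where 4 of 9720 genes passed, a background of 0.0412% (0 passed without array 10, 2 without array 11 and 7 without array 6). At an unadjusted p under 0.05, 682 genes did. The 4 genes were chosen on this contrast, and nothing is read from these counts. Over all genes the percentiles 5 and 95 of the estimate were -0.21 and 0.24, with a median of 0.0054. Camp and Anxa1 lay below that range and S100a9 and C1qb inside it.

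The dye effect is another contrast of the same arrays, but the signs of the 4 genes in each orientation were known when they were chosen. Their dye effects are therefore also a description, without a test: 0.31 ± 0.06 (SE) for S100a9, 0.26 ± 0.08 for Anxa1, 0.09 ± 0.09 for Camp and -0.07 ± 0.08 for C1qb. As background, 2.61% of all genes passed limma's test of the dye effect, 1.92% with the Cy5 arrays above the swaps, and 2.74% of single probes passed. The number of genes that passed, 254, moved to between 99 and 155 when array 3, 5, 6, 9, 10, 11, 12 or 14 was left out and to 431 without array 7. Orientations without overlap and with Cy5 higher, as in S100a9 probe 4846, occurred in 1.23% of 19863 probes. All 7 dye swaps were below 0 in 4.69% of the probes measured on all of them, and S100a9 probe 4846 and the Anxa1 probe were among these. Nothing is read from the place of the 4 genes in these shares.

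The orientation split of S100a9 probe 4846 had the same sign in each array set. The means for Cy5 and for the swaps were 0.39 and -0.94 in the largest set (4 and 4 arrays), 0.44 and -0.58 in arrays 5, 6, 11 and 13 (2 and 2), and -0.02 and -0.40 in arrays 7, 8 and 15 (2 and 1). For Anxa1 they were -0.01 and -0.59, 0.35 and -0.25, and -0.26 and -0.59 in the same order. With the sign of the swaps turned, the treatment estimates would be 0.31 for S100a9, 0.26 for Anxa1, 0.09 for Camp and -0.07 for C1qb, and only the sign of C1qb would stay as reported. Without array 2 these turned values were -0.0096 for C1qb and 0.05 for Camp, so that of C1qb rested on that array.

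S100a9 probe 4846 and Anxa1 had like values across the arrays. Over the 15 arrays r was 0.77 (rho = 0.76), and 0.65 without the 2 arrays farthest from the median of Anxa1. Both were higher in the same orientation, which adds to such a value. After each orientation was centred on its mean, r was 0.57. The 2 farthest arrays were then picked anew from the centred values (arrays 8 and 14, before centring arrays 5 and 14). Without arrays 8 and 14 the centred r was 0.02, so within orientations the likeness rested on those arrays. The S100a9 probes correlated with each other at r = 0.25 (rho = 0.13), and at -0.10 after centring. Of the other pairs among the 6 probes, the r values lay between -0.49 (Camp probe 4922 with C1qb) and 0.45 (Camp probe 4922 with S100a9 probe 18815). These are descriptions over arrays that share the untreated line as their reference.

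**Figure D2:**
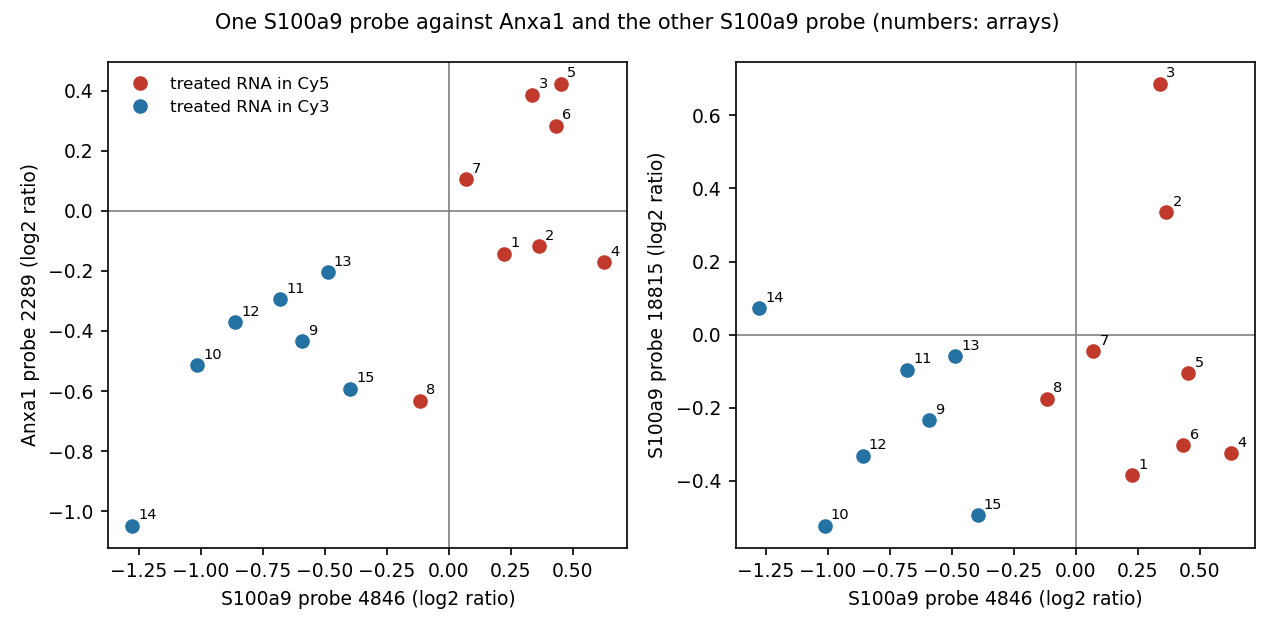
Each point is an array, numbered as in the labels; the horizontal axis gives the log2 ratio of S100a9 probe 4846 and the vertical axis that of Anxa1 (left) or of S100a9 probe 18815 (right), with red for treated RNA in Cy5 and blue for the dye swaps. On the left the blue points lie below 0 on both axes and array 14 is lowest on both (-1.28 and -1.05), while on the right the swaps overlap with the Cy5 arrays on the vertical axis.

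The direct relatives of the 4 genes were listed whatever their values. Of 55 listed, 42 could be tested, 40 of them besides S100a9 and Anxa1. None passed limma's test for the treatment estimate, and 9 had an unadjusted p under 0.05, against 682 of all 9720 genes. Their estimates ran from -0.45 to 0.34 with 25 of 40 below 0, against 48.0% of all genes. With the swaps turned they ran from -0.30 to 0.48 with 24 of 40 below 0, against 50.8% of all genes. Below 0 in both orientations were 12, above 0 in both 7, above with Cy5 and below on the swaps 9, and the reverse 12. Over all genes 18.2% were below 0 in both and 60.4% had opposite signs, 29.7% with Cy5 above and the swaps below. The differences from these shares were not tested.

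Among the partners of S100a9, S100a8, the other subunit of calprotectin, was at -0.14 ± 0.07 (SE; n = 15). Its means were 0.0093 on the Cy5 arrays and -0.29 on the swaps, where 6 of 7 arrays lay below 0. Its dye effect of 0.15 did not pass (adjusted p = 0.240 in limma). S100a4, a regulator of cell motility, was below 0 on 7 of 8 arrays and 7 of 7 swaps (-0.16 ± 0.05, SE, and 0.06 with the swaps turned). S100a10, the partner of annexin A2, was below 0 on 8 of 8 and 4 of 7 (-0.17 ± 0.06, SE, and -0.08 with the swaps turned). S100a3 was the 1 relative of 40 with a dye effect past the threshold, a share near the 2.61% of all genes. Its sign was opposite to that of S100a9. It was below 0 on 8 of 8 Cy5 arrays and on 0 of 7 swaps, with means of -0.34 and 0.25 (dye effect -0.30 ± 0.06, SE; adjusted p = 0.0180 in limma). S100a11 was split as S100a9 was, with means of 0.16 and -0.24, but its dye effect of 0.20 did not pass (adjusted p = 0.0605 in limma). S100a14 was at -0.45 ± 0.22 (SE), and at -0.10 with the swaps turned. S100a5 (-0.12), S100a16 (-0.05) and S100a6 (-0.01) had estimates below 0. Those of S100a13 (0.0016), S100a1 (0.01), S100b (0.08), S100g (0.16) and S100pbp (0.17) were above it. With S100a9 counted, 10 of 15 S100 genes tested were below 0, with a median of -0.04, and with the swaps turned 7 of 15 would be, with a median of 0.06. Without S100a9 these were 9 of 14 (median -0.04) and 7 of 14 (median 0.0092). One of the 15, S100pbp, encodes a binding partner and not a family member. The basigin gene Bsg, a receptor of S100a9, was at 0.07 ± 0.10 (SE), with means of 0.49 and -0.35 and a dye effect of 0.42 that passed (adjusted p = 0.0341 in limma). Of the 7 receptors and partners tested, Alox5, an enzyme of leukotriene synthesis, passed in the opposite direction, with means of -0.48 and 0.21 (dye effect -0.34 ± 0.08, SE; adjusted p = 0.0341 in limma). Both were singled out after their values were seen. Ager was at -0.22 ± 0.21 (SE).

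Of 11 annexins measured, 6 had an estimate below 0, with a median of -0.05, and with the swaps turned 9 would be, with a median of -0.02. Without Anxa1, which was chosen on these values, these were 5 of 10 (median -0.0035) and 9 of 10 (median -0.03). A mean above 0 in Cy5 and below 0 on the swaps was found in 1 of the 11, Anxa1, against 29.7% of all genes. The Cy5 mean of Anxa1, 0.02 ± 0.35 (SD, n = 8), was close to 0. Its signs were known when it was chosen, so nothing is read from this count. Anxa2, which binds S100a10 at the membrane, was at 0.32 ± 0.14 (SE) and lay below 0 on only 2 of 8 arrays and 2 of 7 swaps. With the swaps turned Anxa2 would be at 0.08. Anxa5, known for binding exposed phosphatidylserine, was at 0.13 ± 0.05 (SE) and Anxa3 at -0.13 ± 0.06. Their means on the Cy5 arrays and the swaps were 0.11 and 0.16 for Anxa5, and -0.30 and 0.03 for Anxa3. Anxa7 (-0.15), Anxa4 (-0.10), Anxa6 (-0.07) and Anxa11 (-0.05) had estimates below 0, and Anxa8 (0.17), Anxa13 (0.12) and Anxa9 (0.04) above it. None passed limma's test. The formyl peptide receptor genes listed were not tested.

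The other chains of the C1q complex were nearer to 0 than C1qb. C1qa was at -0.06 ± 0.09 (SE), with means of -0.24 and 0.11, and C1qc at 0.01 ± 0.07, with means of 0.04 and -0.0095. C1s1, a protease of the first complement component, was at 0.20 ± 0.17 (SE). The differences between the chains were not tested. Over 24 complement genes, 10 were below 0 with a median of 0.01, and 12 with a median of -0.0022 with the swaps turned. Without C1qb these were 9 of 23 (median 0.01) and 11 of 23 (median 0.02). The macrophage list gave 10 of 21 below 0 and a median of 0.0059, and 11 and -0.0013 with the swaps turned. Without C1qb it gave 9 of 20 (median 0.0095) and 10 of 20 (median 0.01).

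Of the other granule genes, Ngp, a neutrophil granule protein, was at -0.09 ± 0.06 (SE), Ltf, lactoferrin, at -0.12 ± 0.06 and Mmp9, gelatinase B, at -0.13 ± 0.06. The means on the Cy5 arrays and the swaps were -0.04 and -0.14 for Ngp, -0.29 and 0.04 for Ltf, and -0.14 and -0.13 for Mmp9. Lcn2, which binds bacterial siderophores, was at -0.0021 ± 0.05. Pglyrp1, a granule protein that binds bacterial peptidoglycan, lay the other way, at 0.07 ± 0.15 (SE), with means of -0.18 and 0.32 and 0 of 7 swaps below 0. Of the primary granule genes, neutrophil elastase (Elane) was at -0.10 ± 0.08, myeloperoxidase (Mpo) at -0.07 ± 0.05 and proteinase 3 (Prtn3) at -0.03 ± 0.06. Mmp8, the neutrophil collagenase, was at -0.23 ± 0.07 (SE; adjusted p = 0.430 in limma). Its means were -0.01 and -0.44, and with the swaps turned it would be at 0.21. Elane lay below 0 on 3 of 8 arrays but on 7 of 7 swaps, and Lyz2, lysozyme, also on 3 of 8 and 7 of 7. For Lyz2 the means were 0.44 and -0.51, and its dye effect of 0.48 did not pass (adjusted p = 0.0654 in limma). Cybb, the catalytic subunit of the phagocyte oxidase, had means of 0.36 and -0.40. Its dye effect of 0.38 ± 0.09 (SE) passed (adjusted p = 0.0339 in limma), as did that of 2.61% of all genes. Mmp8 and Cybb were chosen after their values were seen. The dye effect was below 0 in 9 of the 23 neutrophil genes tested. Among these were Ncf4, with means of -0.34 and 0.05, and Chil3, with means of -0.12 and 0.40.

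**Figure D3:**
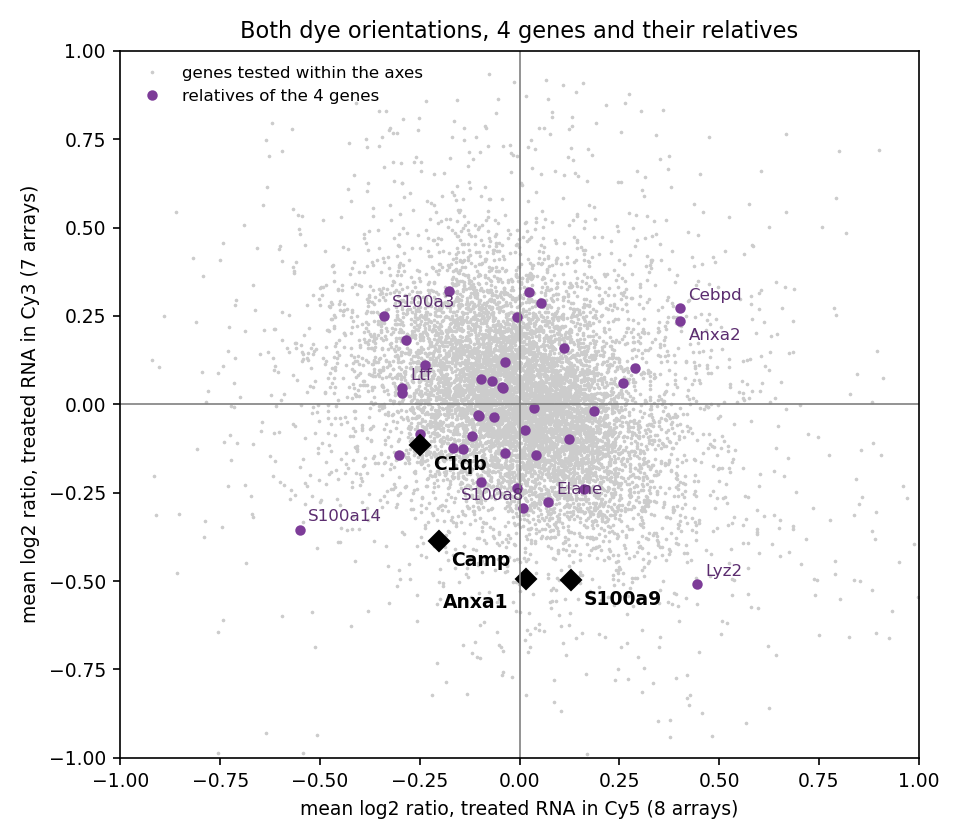
Each point is a gene, with its mean log2 ratio over the 8 arrays with the treated RNA in Cy5 on the horizontal axis and over the 7 dye swaps on the vertical axis; grey points are genes tested (those within the axes), purple points the 40 relatives, and black diamonds the 4 genes. Camp and C1qb lie below 0 on both axes, S100a9 lies right of 0 and below it (0.13 and -0.50) with Lyz2 further right, and S100a3 lies in the opposite quadrant.

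Read as a list, 19 of 23 neutrophil genes had a treatment estimate below 0, with a median of -0.10. These include Camp, S100a9 and Anxa1; without them it was 16 of 20, with a median of -0.08. The count depends on the direction of the swaps: with these turned, 9 of 23 were below 0 with a median of 0.06, and 9 of 20 without the 3 genes, with a median of 0.05. Over all genes 48.0% were below 0, with a median of 0.0054, and no member of the list passed for the treatment estimate. The list median lay below 0 on 6 of 8 arrays (from -0.17 to 0.08) and on 7 of 7 swaps (from -0.27 to -0.06). The median of all genes did so on 2 of 8 arrays and 4 of 7 swaps. These list medians include Camp, S100a9 and Anxa1, which were chosen on the same values, and were not taken without them. A mean above 0 in Cy5 and below 0 on the swaps, as for S100a9, was found in 10 of the 23, or 43.5%, against 29.7% of all genes. Without Camp, S100a9 and Anxa1 it was 8 of 20. A low ratio of myeloid markers had already been seen on these arrays, so the list is not independent evidence of a direction.

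Among the regulators, Cebpd, a C/EBP factor of the acute phase response, was above 0 on 8 of 8 arrays and 6 of 7 swaps, at 0.34 ± 0.06 (SE; adjusted p = 0.0558 in limma). With the swaps turned Cebpd would be at 0.06 ± 0.06 (SE). Cebpa, which drives granulocyte commitment, was at -0.05 ± 0.12 (SE) and Cebpe, needed for secondary granule genes, at 0.0031 ± 0.06. Of 12 myeloid factors 4 were below 0 (8 with the swaps turned), and none passed. Among 15 glucocorticoid targets, which include Anxa1, 9 were below 0 with a median of -0.13, and with the swaps turned 6 were, with a median of 0.09. Without Anxa1 these were 8 of 14 (median -0.10) and 6 of 14 (median 0.08). The medians of the whole list, with Anxa1, lay below 0 on 3 of 8 arrays and 6 of 7 swaps, against 2 and 4 for all genes. Cdkn1c, the 1 of the 15 that passed for the dye effect, had means of 0.15 and -0.47. Its dye effect was 0.31 ± 0.06 (SE, adjusted p = 0.0182 in limma), and 2.61% of all genes passed. It was singled out after its values were seen. The dye effect was below 0 in 6 of the 15, among them Per1 (-0.24) and Tat (-0.18).

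Markers of other cells were set beside these values. The treatment estimate was below 0 for 5 of 9 B cell markers (median -0.04), 9 of 14 T and NK cell markers (median -0.04) and 5 of 7 erythroid markers (median -0.02). It was below 0 for 4 of 6 mast cell, basophil and eosinophil markers (median -0.11), 3 of 6 platelet markers (median 0.04) and 4 of 10 dendritic cell markers (median 0.02). For fibroblast markers (as of feeder cells) it was 6 of 19 (median 0.04), for pluripotency markers 5 of 14 (median 0.06) and for markers of adult organs 4 of 13 (median 0.02). With the swaps turned, the counts and medians were 6 of 9 (-0.20) for B cell, 9 of 14 (-0.04) for T and NK cell and 4 of 7 (-0.0039) for erythroid markers. They were 3 of 6 (0.05) for mast cell, basophil and eosinophil, 2 of 6 (0.02) for platelet and 5 of 10 (-0.01) for dendritic cell markers. For fibroblast, pluripotency and adult organ markers they were 10 of 19 (-0.0026), 10 of 14 (-0.04) and 6 of 13 (0.0048). None of the 214 genes of the 17 lists passed limma's test of the treatment estimate. With the swaps turned 7 did, against 254 of all 9720 genes (2.61%). The 7 include S100a9, whose split was known when it was chosen, so nothing is read from that count either. An unadjusted p under 0.05 was found for 28 of the 214, against 682 of all 9720. The 28 include the 4 genes, which were chosen on this contrast, so nothing is read from that count. Ratios do not tell which of the 214 genes were expressed at all. The part of any cell type in the ratios of the 4 genes was not tested.

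**Figure D4:**
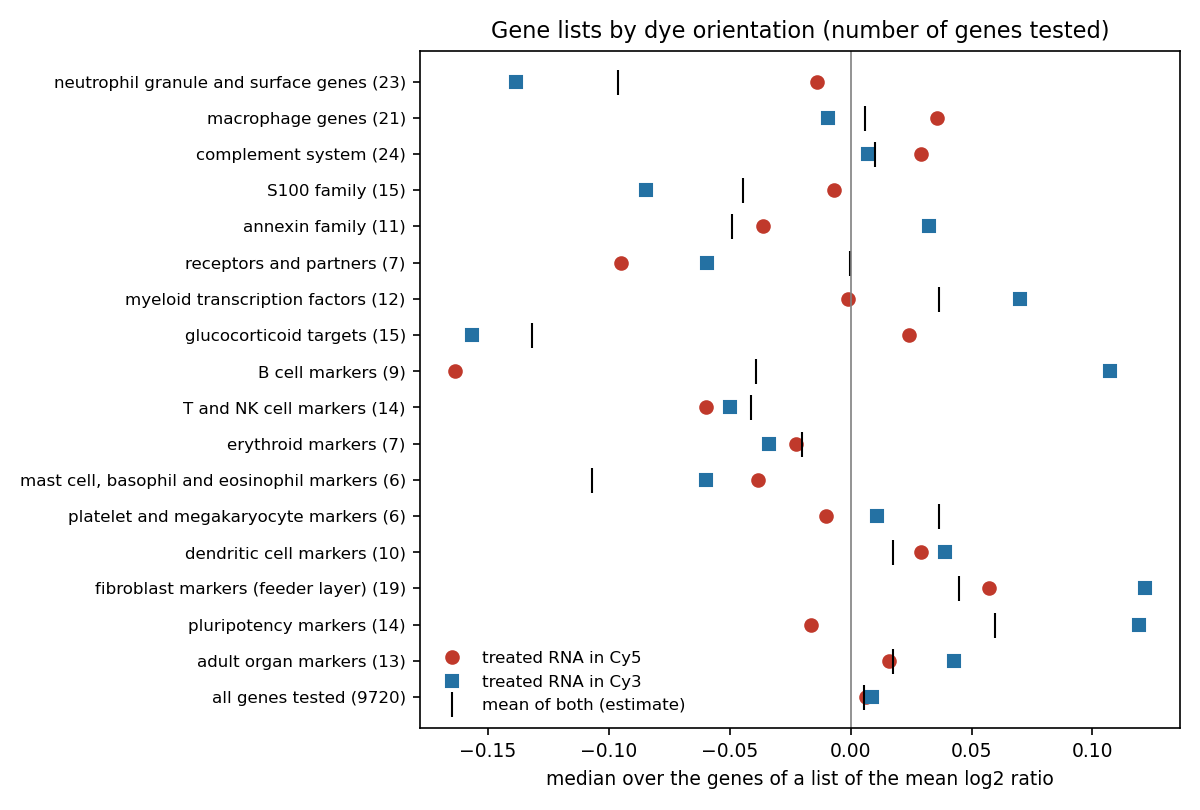
For each gene list (number of genes tested in brackets), the horizontal axis gives the median over its genes of the mean log2 ratio with the treated RNA in Cy5 (red circles), on the dye swaps (blue squares) and of the treatment estimate (black bars). For neutrophil genes the median is -0.01 on the Cy5 arrays and -0.14 on the swaps, for glucocorticoid targets 0.02 and -0.16, and for all genes tested both lie within 0.01 of 0.

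The genes most like each of the 4 over the arrays were found by Pearson's r after each orientation was centred, among genes with at least 12 arrays in common. For Camp they were Mthfd2, a mitochondrial folate enzyme (r = 0.84 over 15 arrays), Lrpap1 (0.82) and Cyb561a3 (0.81). For S100a9 they were Ktn1 (r = 0.88 over 15 arrays), Pnliprp2 (0.85 over 13) and Sh3bgrl2 (0.85 over 13). For C1qb they were Trappc10 (r = 0.86), Cct6a (0.84) and Cgnl1 (0.84), and without the 2 arrays farthest from the median these were 0.61, 0.26 and 0.37. For Anxa1 they were Poldip3 (r = 0.92), Ube2l3 (0.91) and Krt4 (0.83), which gave 0.85, 0.87 and 0.69 without those arrays. None of the 12 genes is in the gene lists above. They were picked as the highest of 9720 over few arrays that share channels and normalization, so the values describe likeness and nothing more.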

How the data were processed

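The authors deposited 1 log2 ratio of the 2 channels per probe and array; normalization, background correction and direction are unstated in the labels. That the scale is log2 follows from the size of the values. The members and gene lists were chosen with earlier results of these data known. Values with an absolute log2 above 10 were set missing. Probes were named from the platform annotation (1 symbol for 13891 of 20205 probes, several for 5, none for 6309), with 13855 identifiers found in RefSeq (GRCm38.p6), and probes of a gene were averaged on each array. Where at least 4 arrays per orientation gave a value, a gene (9720) or probe (19863) entered the limma 3.58.1 fit (lmFit, eBayes; R 4.3.3), with the mean of both orientations and the dye effect as terms, tested on simulated data beforehand, with Benjamini-Hochberg adjustment. Named genes are the 4 members, all tested direct relatives and the 3 most alike genes each. Cybb, Mmp8, Bsg, Alox5, Cdkn1c, Ncf4, Chil3, Per1 and Tat were added after their values were seen. Further steps used Python 3.11.15. P-values measure the spread between arrays, which may be technical; 15 arrays limit the precision (median probe SE 0.099). Alternatives covered direction, dye term, normalization, weights, placeholders, dim spots, probe choice, missing values, pairing and leaving out arrays.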

Additional observations from a re-analysis of the deposited data

Results flagged for a closer look

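For Camp probe 4778, array 5 lay at -2.02 while the other arrays with the treated RNA in Cy5 lay between -0.34 and 0.47, a gap of 0.677 of the whole range against Dixon's critical value of 0.526. For C1qb, array 2 lay at -1.04 and the other 7 arrays of that orientation between -0.37 and -0.03, a gap of 0.669 of the range. These are 2 values in 16 groups of arrays checked, and chance flags about 1 in 20 groups. The orientations lay apart for S100a9 probe 4846 (dye effect 0.53 ± 0.08, SE) and for the S100a9 average (0.31 ± 0.06). This split was known when the gene was chosen, so it is listed as a description and was not tested on other arrays.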

How the results depend on the processing

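The treatment estimates of Camp, S100a9, C1qb and Anxa1 stayed below 0 in all 15 fits that left out 1 array and in all 11 other fits of both orientations. The genes were chosen on values of these arrays and the fits share most of the data, so the sign could hardly turn. Some of the 11 could not move the estimates: the 4 genes had values on all 15 arrays and no placeholders. These counts are therefore not evidence of a direction. Leaving out 1 array gave -0.34 to -0.24 for Camp, -0.21 to -0.16 for S100a9, -0.20 to -0.13 for C1qb and -0.27 to -0.19 for Anxa1. Turning the swaps gave 0.0925 for Camp, 0.31 for S100a9 and 0.26 for Anxa1. S100a9 was at 0.13 with the treated RNA in Cy5 alone and at -0.50 on the swaps alone. Within arrays 5, 6, 11 and 13, a setting added after seeing the data like the other array sets, Camp was at -0.71 and Anxa1 at 0.05. Camp probe 4778 was at -1.20 there and Camp probe 4922 at -0.22. The count of 4 genes for the treatment estimate became 254 with the swaps turned (by construction), 0 in each orientation alone, 11 with array weights, 0 without arrays 7, 8 and 15, 8 with placeholders left in, 8 with the most measured probe, and 0 in each array set, with fewer arrays in the fit. Leaving out 1 array gave 0 (array 10) to 7 (array 6), and 2 for array 11. Within the array sets, signs of small dye effects turned (Camp probe 4922 at -0.0024, S100a9 probe 18815 at -0.06325, Camp probe 4778 at -0.12). For the dye effect 254 genes passed, 99 to 431 with 1 array left out (lowest for array 6, highest for array 7), 676 with array weights, 571 without arrays 7, 8 and 15, and 47, 0 and 0 within the array sets. Pairing by title number has no basis in the labels (block correlation -0.0086) and left 4 genes. Signal over background is not in the values used here; causes of these shifts were not tested unless named.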
